A study of Mus musculus with 8 samples.

Results

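The 294 protein-coding genes on mouse chromosome 2 whose names start with Olfr, the olfactory receptor genes, were taken from GENCODE M21 on the mm10 (GRCm38) genome, out of 21851 protein-coding genes on 21 chromosomes. The enriched regions of the histone mark H3K27-me3 deposited for fasted mouse liver were placed on their start sites and clusters. The samples came from male C57BL/6 mice carrying a floxed allele of Jmjd3, the gene of an enzyme that demethylates lysine 27 of histone H3. Aged 8 weeks, the mice received AAV-TBG-Cre, a virus in which a hepatocyte promoter drives Cre recombinase, or the control virus AAV-GFP, and 12 weeks later were fasted for 16 h. Chromatin from minced whole liver was used, so cells other than hepatocytes, in which the promoter is not active, contributed to both groups. Each virus group had 2 mice, with 2 ChIP libraries and 2 input libraries, but the deposited lists hold 1 pooled list of regions per virus. No value per mouse exists in them, no test between the virus groups was possible, and the downregulation of Jmjd3 could not be checked in them.

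Olfactory receptors are G-protein-coupled receptors that detect odorants in sensory neurons of the nose, where each neuron expresses a single receptor allele. Their genes form large tandem clusters, and these genes are regarded as silent in most other tissues, including liver. H3K27-me3 is deposited by the Polycomb complex PRC2, most often over CpG-rich start sites of developmental regulators, whereas olfactory clusters in sensory neurons are known for a different, heterochromatic silencing marked by methylation of lysine 9. The expression of the genes and methylation of lysine 9 were not measured in these lists.

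The 294 genes fell into 3 clusters, here called proximal, middle and distal by their order along the chromosome, each a run of genes no more than 500 kb apart. The proximal cluster at chr2:36373519-37332772 held 28 genes, from Olfr338 to Olfr368, of which 20 lay on the plus strand. The middle cluster at chr2:85330779-90403897 held 227 genes over 5.07 Mb, from Olfr987 to Olfr1274-ps, with 148 on the minus strand. The distal cluster at chr2:111230360-112159157 held 39 genes, from Olfr1275 to Olfr1318. None of the clusters contained unsequenced bases.

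The start sites of these receptors were poor in CpG. RefSeq promoters were found for 237 of the 294 genes, 239 promoters in all, and the 250 bases before the start held a median of 1 CpG in them (range 0 to 7), against 12 in the promoters of other chromosome 2 genes and 6 in all promoters. At least 1 CpG was present in 52.3% of the receptor promoters and in 97.5% of those of other chromosome 2 genes. Shown here are the RefSeq promoter sequences of Olfr153, Olfr998 and Olfr73. Olfr153 had a region within 15 kb in both lists. Olfr998 had the receptor start site nearest to a region in AAV-GFP, and Olfr73 had no region within 500 kb. The promoter of Hoxd10, a developmental regulator covered by H3K27-me3 in both lists, is given for contrast. Each is the 250 bases before the RefSeq start on its own strand, 5′ to 3′, with CpG dinucleotides in capitals, on GRCm38.p6. Olfr153 lies at chr2:87531785-87532034 (plus strand, 0 CpG) and Olfr998 at chr2:85590260-85590509 (plus strand, 0 CpG). Olfr73 lies at chr2:88035138-88035387 (minus strand, 1 CpG) and Hoxd10 at chr2:74691641-74691890 (plus strand, 20 CpG). The Olfr998 and Olfr73 sequences lie wholly inside their GENCODE gene records, chr2:85588948-85591893 and chr2:88032288-88037699. The Olfr153 sequence lies mostly inside its record, which begins at chr2:87531796. None of these receptor sequences is therefore the 250 bases before the 5′ end of its gene record.
Olfr153: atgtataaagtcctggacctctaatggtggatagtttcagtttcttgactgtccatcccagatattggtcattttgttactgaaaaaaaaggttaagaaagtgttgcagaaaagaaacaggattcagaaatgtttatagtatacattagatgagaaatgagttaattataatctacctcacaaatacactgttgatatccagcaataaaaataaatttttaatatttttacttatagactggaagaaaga
Olfr998: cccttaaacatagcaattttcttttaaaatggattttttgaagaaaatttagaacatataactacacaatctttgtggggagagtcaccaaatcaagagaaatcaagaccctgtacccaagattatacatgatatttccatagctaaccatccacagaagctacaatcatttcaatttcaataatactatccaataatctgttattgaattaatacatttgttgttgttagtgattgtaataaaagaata
Olfr73: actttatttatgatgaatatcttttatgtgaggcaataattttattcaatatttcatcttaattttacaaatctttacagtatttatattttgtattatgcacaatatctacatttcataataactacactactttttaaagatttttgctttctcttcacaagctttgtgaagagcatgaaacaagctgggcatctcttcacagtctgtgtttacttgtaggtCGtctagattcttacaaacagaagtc
Hoxd10: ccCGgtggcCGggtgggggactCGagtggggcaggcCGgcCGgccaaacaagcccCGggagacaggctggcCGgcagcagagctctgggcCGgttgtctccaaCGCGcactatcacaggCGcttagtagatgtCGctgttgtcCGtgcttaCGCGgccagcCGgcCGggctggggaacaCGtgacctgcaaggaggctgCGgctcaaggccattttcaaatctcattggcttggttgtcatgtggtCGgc

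In both virus groups the receptor clusters were almost free of H3K27-me3 regions. Marked genes were those with a region no more than 15 kb from any of their start sites. In AAV-Cre 2 of the 294 receptors were marked (0.680%, Wilson 95% interval 0.187 to 2.45%), where 41.6% of all protein-coding genes were. In AAV-GFP 9 receptors were marked (3.06%, interval 1.62 to 5.71%), where 28.0% of all protein-coding genes were. Neither list marked 284 of the receptors, or 96.6%. Of the 1542 other protein-coding genes on chromosome 2, AAV-Cre marked 781 (50.6%, interval 48.2 to 53.1%) and AAV-GFP 508 (32.9%, interval 30.6 to 35.3%). The intervals of receptors and other genes were far apart in each list, but they cover counting error only, and neighbouring genes that share a region are not independent of each other.

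The receptors marked in the 2 lists were mostly different genes. Olfr153 was marked in both, Olfr368 only in AAV-Cre, and the other 8 only in AAV-GFP, namely Olfr50, Olfr3, Olfr351, Olfr352, Olfr353, Olfr996, Olfr998 and Olfr1293-ps. Over all protein-coding genes, AAV-Cre alone marked 14.8% and AAV-GFP alone 1.21%. The excess of AAV-GFP among the receptors rested on short regions. The shortest region was 300 bp wide in the AAV-Cre list and 120 bp in the AAV-GFP list, and with regions of at least 300 bp in both lists 2 receptors were marked in AAV-Cre and 1 in AAV-GFP. With regions of a q-value of 0.05 or lower the counts were likewise 2 and 1.

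By cluster, the proximal one held 1 of the 2 receptors marked in AAV-Cre and 5 of the 9 marked in AAV-GFP, among its 28 genes. In the middle cluster 1 of 227 was marked in AAV-Cre and 3 of 227 in AAV-GFP. In the distal cluster 0 of 39 receptors were marked in AAV-Cre, with a Wilson 95% upper limit of 8.97% (3 counts of the total, the limit set by a count of 0, come to 7.69%), and 1 was marked in AAV-GFP. The clusters as a whole make up 3.90% of the sequenced bases of chromosome 2. They held 2 of its 5148 regions in AAV-Cre (0.0389%) and 6 of its 2850 regions in AAV-GFP (0.211%).

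Region density was far lower inside the clusters than outside. In AAV-Cre there were 0.287 regions per Mb inside the clusters and 30.0 per Mb on the rest of the chromosome, 105 times as many. In AAV-GFP the densities were 0.862 and 16.6 regions per Mb, a ratio of 19.3. Regions covered 0.0154% of the bases in the clusters and 3.79% of the rest in AAV-Cre, and 0.0148% against 0.797% in AAV-GFP. The 500 kb on each side were not uniformly rich either. Around the proximal cluster these flanks together held 43 regions in AAV-Cre and 30 in AAV-GFP, around the middle cluster 14 and 17, and around the distal cluster 6 and 5.

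**Figure D1:**
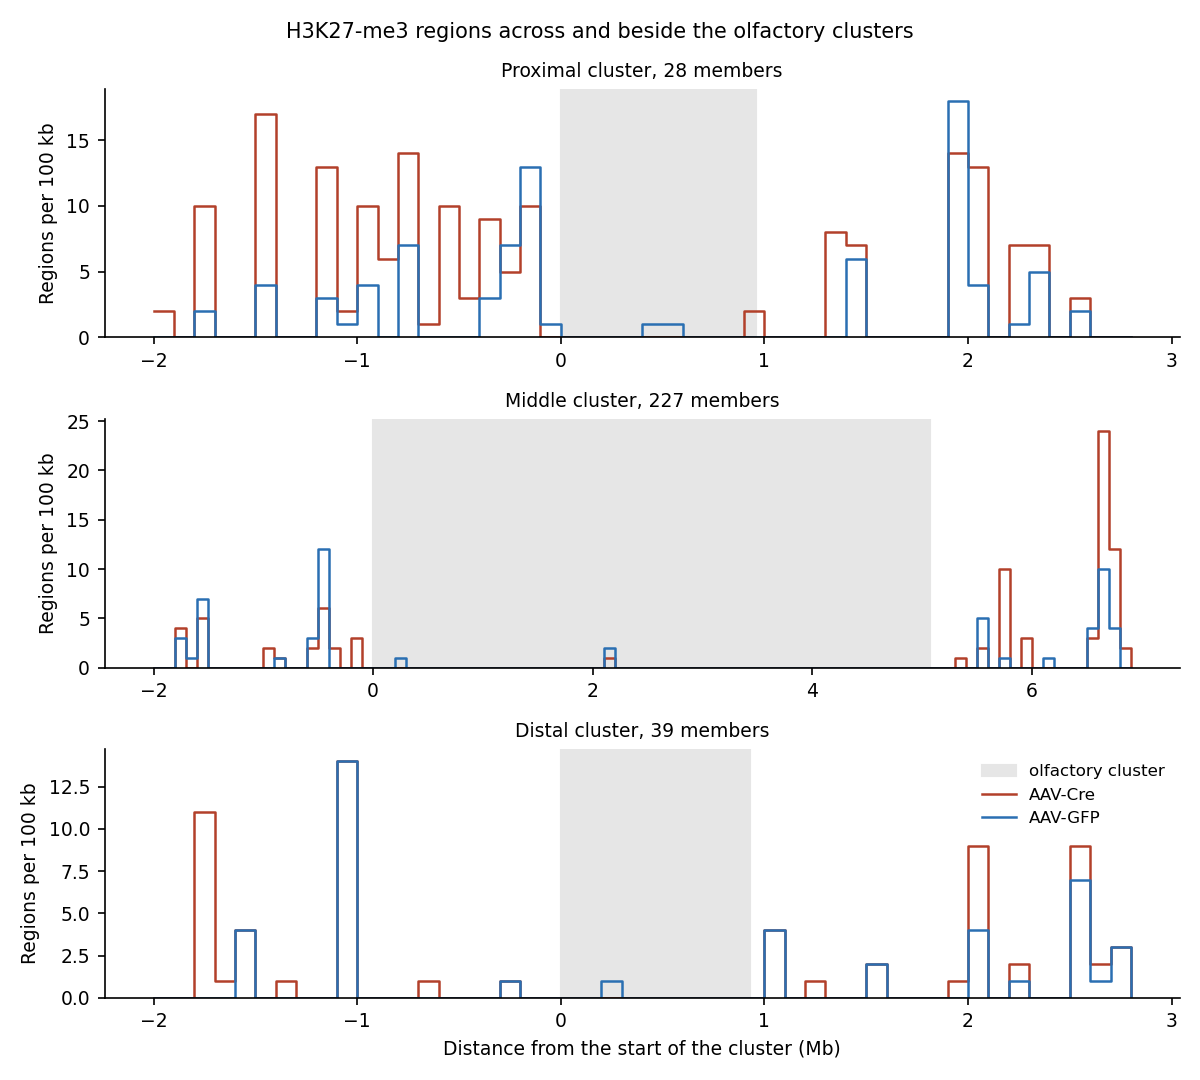
Number of H3K27-me3 regions in each 100 kb (y axis) against the distance from the start of each olfactory cluster in Mb (x axis), for the AAV-Cre list (red) and the AAV-GFP list (blue), 1 pooled list each. Grey spans the cluster. The middle cluster of 227 genes holds 1 region in AAV-Cre and 3 in AAV-GFP across its 5.07 Mb. Its flanks of 500 kb on each side hold 14 and 17 regions, and the last step of the proximal panel under the grey edge combines the region over Olfr368 with another just outside the cluster.

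Windows of 100 kb were compared next, with the other windows split by coding start sites and limited in GC content, which was not matched. Of 67 windows inside the clusters, 1 held a region in AAV-Cre (1.49%, Wilson 95% interval 0.264 to 7.98%) and 4 did in AAV-GFP (5.97%, interval 2.35 to 14.4%). The AAV-Cre region over Olfr368, at the end of the proximal cluster, lay in none of these 67 windows and was not counted. Of 646 windows elsewhere on the chromosome that had no coding start site and a GC content no higher than that of the richest cluster window (42.0%), 17.6% held a region in AAV-Cre (interval 14.9 to 20.8%) and 15.8% in AAV-GFP (interval 13.2 to 18.8%). These windows had a median GC content of 38.7%, against 37.0% in the cluster windows, and unlike the clusters they hold no coding start sites. The AAV-Cre intervals do not overlap, and the AAV-GFP intervals do. Of the 835 windows elsewhere with a coding start site, 64.9% and 48.6% held a region.

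Most receptors lay far from any region. The median distance from a receptor's nearest start site to a region was 582 kb in AAV-Cre (95% interval of the median 530.2 to 656 kb) and 481 kb in AAV-GFP (382 to 571 kb). These intervals treat receptors as independent. Neighbouring receptors share the same nearest regions, so the intervals do not measure the precision of the medians. For other chromosome 2 genes the medians were 14.5 and 41.9 kb. A distance beyond 500 kb was found for 171 receptors (58.2%) in AAV-Cre and for 141 (48.0%) in AAV-GFP, compared with 2.53% and 2.20% of the other genes. The receptors of the middle cluster were the most remote, with medians of 752 kb in AAV-Cre and 664 kb in AAV-GFP, whereas in the proximal cluster the medians were 335 and 115 kb and in the distal cluster 363 and 162 kb.

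The most remote receptors in AAV-Cre were Olfr1219, Olfr1220 and Olfr1221, at 1548736, 1545815 and 1535367 bp. In AAV-GFP they were Olfr1226, Olfr1225 and Olfr1228, at 1666905, 1644118 and 1630875 bp. All 6 are receptors of the middle cluster. Olfr73, a receptor studied for its odorant eugenol, lay 508784 bp from a region in AAV-Cre and 508010 bp in AAV-GFP, and Olfr1019, a receptor for a fox odour linked to immobility, lay 616805 and 250331 bp away. At the 15-kb threshold, the last receptor inside it in AAV-Cre was Olfr153 at 5443 bp and the first outside it Olfr1128 at 19189 bp. In AAV-GFP the last inside was Olfr353 at 14562 bp and the first outside Olfr348 at 15947 bp.

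**Figure D2:**
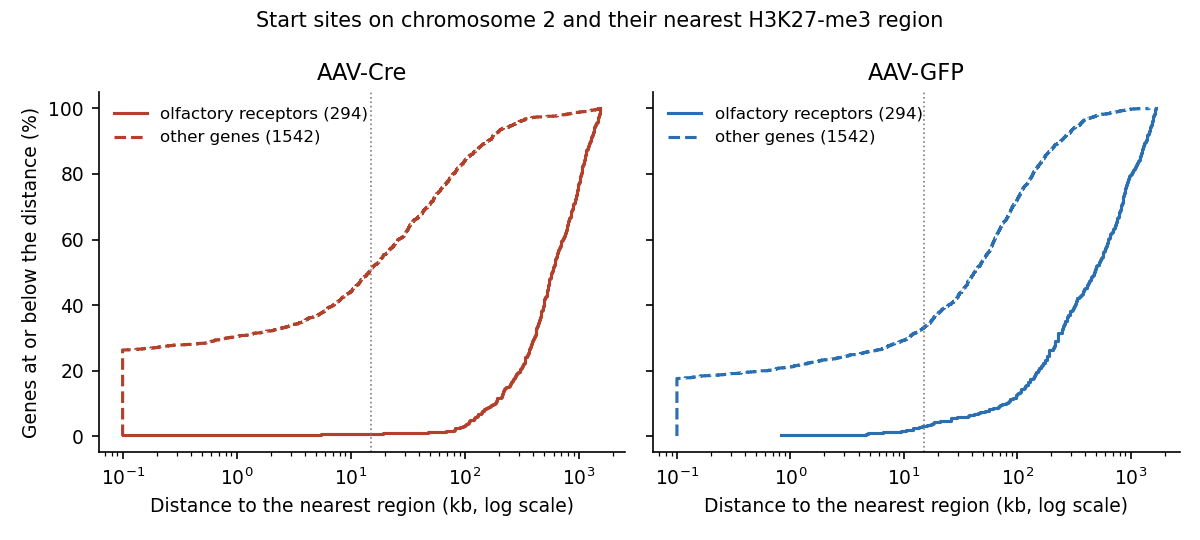
Share of genes (y axis, percent) whose nearest H3K27-me3 region lies at or below a given distance (x axis, kb, log scale), for 294 olfactory receptors (solid) and 1542 other protein-coding genes on chromosome 2 (dashed) in the AAV-Cre (left) and AAV-GFP (right) lists. Distances under 100 bp are drawn at 100 bp and the dotted line marks 15 kb. At 100 kb the receptor curves have reached 3.06% in AAV-Cre and 12.9% in AAV-GFP, against 84.0% and 72.1% of other genes.

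The middle cluster lay almost wholly within 2 stretches without a region in AAV-Cre. The stretch chr2:85224985-87525891 (2.30 Mb) held 99 of the receptors and the stretch chr2:87526354-90652649 (3.13 Mb) held the other 128. Between regions on chromosome 2 the median gap was 1.89 kb for AAV-Cre and 1.08 kb for AAV-GFP. The longer stretch was the third longest gap on the chromosome, after a 3.69-Mb gap with 2 coding genes and a gap of 3.16 Mb that contains unsequenced bases, and it ranked 47 among 59246 gaps between AAV-Cre regions in the genome. In AAV-GFP the stretch chr2:87527128-90884936 (3.36 Mb), with the same 128 receptors, was the longest gap on chromosome 2 and ranked 22 among 34565. Long gaps thus also occurred away from the receptors.

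The borders of the clusters differed in how soon the mark resumed. Upstream of Olfr338, the nearest AAV-Cre region lay 141347 bp away on an exon of Ptgs1, which encodes a prostaglandin synthase, and had a fold enrichment of 6.42 over input. Beyond Olfr368 the next AAV-Cre region lay 5414 bp away in intergenic sequence, and the next AAV-GFP region 442057 bp away near Crb2, a polarity gene. Before Olfr987 the nearest AAV-Cre region was 105795 bp away, with Lrrc55 as the closest coding start, and in AAV-GFP the mark resumed 440972 bp away near Rtn4rl2, which encodes a Nogo-type receptor.

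Past the end of the middle cluster at Olfr1274-ps, AAV-Cre resumed after 248753 bp near the nucleoporin gene Nup160, and AAV-GFP after 481040 bp on an exon of C1qtnf4. Before Olfr1275 the nearest regions lay on an exon of the anoctamin gene Ano3, 279787 bp away in AAV-Cre and 280078 bp in AAV-GFP, and beyond Olfr1318 they lay at Lpcat4, a lysophospholipid acyltransferase gene, 78564 and 80761 bp away. The AAV-GFP regions at the borders of the distal cluster were weak, with q-values of 0.432 at Ano3 and 1 at Lpcat4, as was the region near Crb2 (q-value 0.343). Those at the borders of the middle cluster were strong, with q-values of 6.72e-21 near Rtn4rl2 and 5.43e-19 on C1qtnf4. The remaining border, upstream of Olfr338 in AAV-GFP, had an intergenic region of 226 bp with a q-value of 0.979 at 37296 bp. Within 500 kb of the clusters lay 44 other coding genes, of which 18 (40.9%) were marked in AAV-Cre and 7 (15.9%) in AAV-GFP.

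Protein-coding genes without an Olfr name were found inside the middle cluster only. They were 4833423E24Rik, Gm13723, Pramel7, Pramel6, Gm13757, Gm13762 and Gm13769, and 0 of these 7 were marked in either list. The closest was Pramel6, a gene of the Prame-like family, at 17434 bp in AAV-Cre and 17539 bp in AAV-GFP, and the farthest was Gm13762 at 1453898 and 1453124 bp. A count of 0 of 7 is a small number, and no share was drawn from it.

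The regions that did occur in or beside the clusters were few enough to describe singly. The strongest by −log10 p in each list, and the only location present in both, was chr2:87525892-87526353 in AAV-Cre (462 bp, fold enrichment 3.83, q-value 1.80e-07) and chr2:87525997-87526313 in AAV-GFP (317 bp, fold enrichment 2.35, q-value 0.0388). Olfr153 was the nearest coding start, 5443 and 5483 bp away. By −log10 p the region ranked 10824 of 59267 in AAV-Cre and 15673 of 34586 in AAV-GFP, so it was in the upper part of the AAV-Cre list and near the middle of the AAV-GFP list. It was rich in CpG for this cluster, with 29 in the 462 bp and 27 in the 317 bp, at a GC content of 53.7% and 61.2%.

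This shared region lay over an exon of Gm13736, a processed pseudogene at chr2:87526145-87526397 on the plus strand, that is, a copy of a messenger RNA inserted into the genome. Over its 253 bases the pseudogene matched the coding transcript of Srp9, a subunit of the signal recognition particle, with 100% identity. The Srp9 gene lies on chromosome 1 at chr1:182124737-182132407, and 405 of the 462 bases of the AAV-Cre region (87.7%) aligned to that locus in 5 blocks of 85.2 to 100% identity. Only 58.8% of the 31-base words of the region in AAV-Cre and 54.0% in AAV-GFP occur once in the genome. Srp9 itself had a region 2683 bp from its start site in AAV-Cre and 99280 bp in AAV-GFP. Whether reads from the Srp9 gene contributed to the region was not tested. The 209 bases of the pseudogene inside the AAV-Cre region, chr2:87526145-87526353 on the plus strand, are shown with CpG in capitals. They carry 8 CpG, more than any of the receptors' RefSeq promoters held in 250 bases. Most of the 29 CpG of the AAV-Cre region lay outside the pseudogene exon.
Gm13736 in the AAV-Cre region: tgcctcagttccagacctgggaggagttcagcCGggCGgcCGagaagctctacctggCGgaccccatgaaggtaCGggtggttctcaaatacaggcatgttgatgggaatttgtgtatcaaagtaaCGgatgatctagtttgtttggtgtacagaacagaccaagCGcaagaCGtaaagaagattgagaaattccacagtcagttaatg

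Olfr368, the last gene of the proximal cluster, was the only receptor with a region over a start site. In AAV-Cre the region chr2:37331588-37332199 (612 bp, fold enrichment 2.34, q-value 0.0302) covered a start site and part of its exon. The gene has 2 start sites, and its record begins at chr2:37326515, outside this region. The covered start site is therefore not the 5′ end of the gene. Another AAV-Cre region, chr2:37338186-37338536 (351 bp, fold enrichment 2.64, q-value 0.00860), lay 6437 bp from a start site of the gene, beyond the cluster border. The closest other coding start, that of Pdcl, was 27054 and 20717 bp away. In AAV-GFP the nearest region to Olfr368 was 443080 bp away. All 31-base words of the region over Olfr368 occur once in the genome. The 300 bases around its summit, chr2:37331858-37332157 on the plus strand, lie within the exon and hold 6 CpG, shown in capitals.
Olfr368 exon in the AAV-Cre region: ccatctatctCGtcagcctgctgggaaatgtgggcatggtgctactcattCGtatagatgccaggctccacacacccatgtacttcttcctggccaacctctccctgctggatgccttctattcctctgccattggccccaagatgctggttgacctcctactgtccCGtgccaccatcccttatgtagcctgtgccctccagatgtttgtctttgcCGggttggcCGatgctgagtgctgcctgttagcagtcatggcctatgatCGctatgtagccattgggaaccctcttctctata

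The other 5 AAV-GFP regions were short, with q-values above 0.05. Between Olfr50 and Olfr3, chr2:36802474-36802593 (120 bp) had a q-value of 0.0671. A region of 123 bp at chr2:36876162-36876284 accounted for the marks of Olfr351, Olfr352 and Olfr353, with a q-value of 0.432, and 89.4% of it was repeat-masked. A region of 120 bp at chr2:85591339-85591458 lay in an exon of Olfr998, 829 bp from its start site and 12124 bp from that of Olfr996, with a q-value of 1. Next to the shared region, chr2:87526965-87527127 (163 bp) lay 4669 bp from Olfr153 with a q-value of 0.979. In the distal cluster chr2:111520164-111520353 (190 bp) lay 4850 bp from Olfr1293-ps, also with a q-value of 0.979, and was 74.7% repeat-masked. The sequence of the region in Olfr998, on the plus strand, is shown as the only receptor exon covered in AAV-GFP, and it contains no CpG.
Olfr998 exon in the AAV-GFP region: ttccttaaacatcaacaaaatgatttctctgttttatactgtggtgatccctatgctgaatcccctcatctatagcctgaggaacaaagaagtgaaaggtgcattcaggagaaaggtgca

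A q-value no higher than 0.05 was reached by 1 of the 6 AAV-GFP regions (16.7%) and by 48.4% of the AAV-GFP regions on chromosome 2. It was reached by 3 of 3 AAV-Cre regions and by 88.3% on the chromosome. The median fold enrichment at the clusters was 2.64 in AAV-Cre, where the chromosome's regions had a median of 2.86, and 2.27 in AAV-GFP, where they had 2.61. Folds were computed against pooled input, and the lists do not say which input libraries were pooled. They were not compared between the lists.

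**Figure D3:**
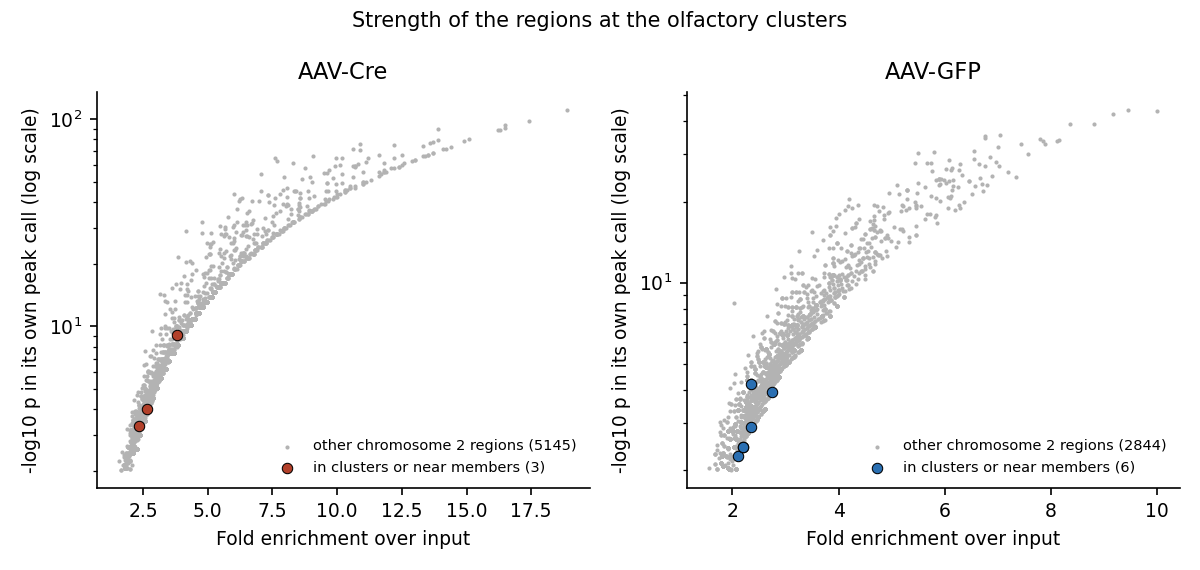
Fold enrichment over input (x axis) and −log10 p in the region's own peak call (y axis, log scale) of H3K27-me3 regions on chromosome 2 in the AAV-Cre (left) and AAV-GFP (right) lists. Large coloured points are regions inside the olfactory clusters or within 15 kb of a receptor (3 and 6, of which 2 in AAV-GFP coincide) and grey points are all other regions. The highest coloured point is the region at Gm13736 in both panels, with a −log10 p of 9.08 in AAV-Cre and 4.18 in AAV-GFP, where the medians of chromosome 2 regions were 4.50 and 3.92.

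The base composition of the clusters differed from that of the rest of the chromosome. GC content was 37.4% in the clusters and 42.3% elsewhere, and CpG dinucleotides numbered 4.86 per kb against 8.68, or 0.139 and 0.194 of the number expected from the base composition. Repeats made up 50.2% of the clusters and 31.4% of the rest. Within 500 bp of the start sites, receptors had a median GC content of 33.1% (range 26.0 to 47.8%), a median of 3 CpG (0 to 18) and a median observed to expected CpG ratio of 0.107 (0 to 0.317), compared with 56.1%, 48 and 0.617 for the other genes. The proximal receptors had the highest median GC content, 37.0%, followed by 33.4% in the distal and 32.5% in the middle cluster.

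Other genes of low CpG content were compared with the receptors. When all chromosome 2 genes were divided into 5 classes of equal size by CpG ratio, 222 receptors (75.5%) fell into the lowest class and the other 72 into the next, with 0 in the upper 3. Among the 146 other genes of the lowest class, 69 were marked in AAV-Cre (47.3%, Wilson 95% interval 39.3 to 55.3%) and 38 in AAV-GFP (26.0%, interval 19.6 to 33.7%). Of the 222 receptors of that class, 2 and 8 were. With a ratio no higher than the receptors' median, 29 of 61 other genes (47.5%) were marked in AAV-Cre and 17 (27.9%) in AAV-GFP. A 15-kb window also takes in the marks of close neighbours. Among other genes of the lowest class with no CpG-rich start site within 30 kb, 31 of 88 were marked in AAV-Cre (35.2%, interval 26.1 to 45.6%) and 16 in AAV-GFP (18.2%, interval 11.5 to 27.5%), while of the 221 such receptors 1 (0.452%) and 8 (3.62%) were. The part of CpG content in the low shares of the receptors was not tested.

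**Figure D4:**
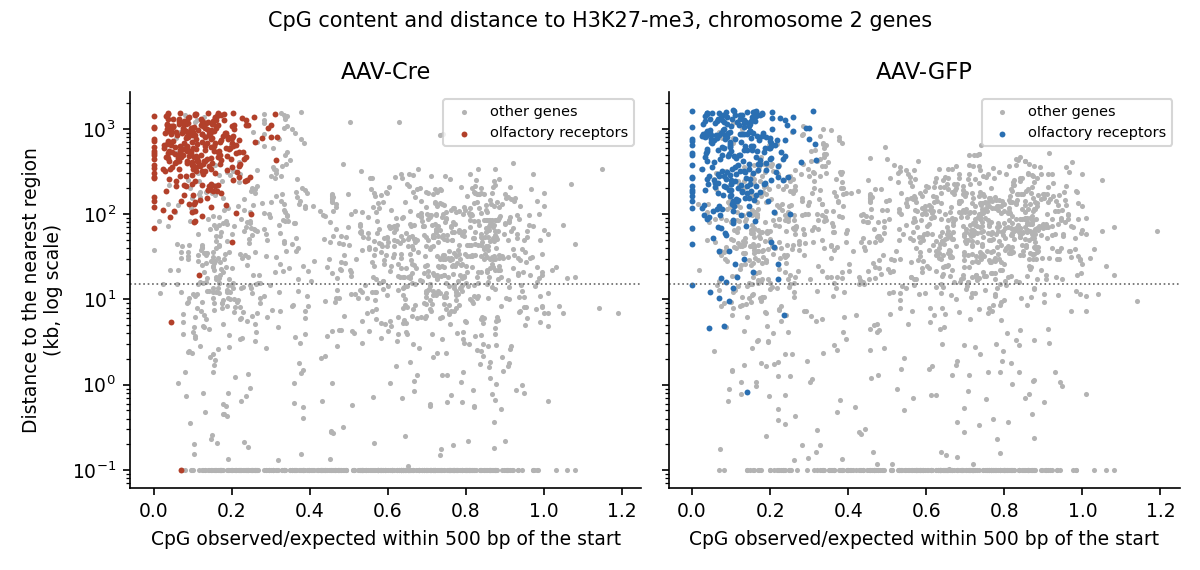
Distance to the nearest H3K27-me3 region (y axis, kb, log scale) against the observed to expected CpG ratio within 500 bp of the start (x axis) for chromosome 2 genes, in the AAV-Cre (left) and AAV-GFP (right) lists. Coloured points are the 294 olfactory receptors, grey points the 1542 other genes, distances under 100 bp are drawn at 100 bp, and the dotted line marks 15 kb. Receptors occupy the upper left corner, with ratios up to 0.317, and grey points of equally low ratio extend down to the bottom of both panels.

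Repeated sequence can limit how many reads are placed, so the uniqueness of the start sites was examined. A median of 96.9% of the 31-base words within 500 bp of receptor start sites occurred once in the genome (range 0 to 100%), and across the clusters 70.3% did, against 86.3% for the rest of the chromosome. Of the 101 receptors with all such words unique, 0 were marked in AAV-Cre and 2 in AAV-GFP. Of the 367 other genes with uniqueness no higher than the receptors' median, AAV-Cre marked 41.4% and AAV-GFP 23.7%. Uniqueness was taken within 500 bp of the start, whereas marks were scored within 15 kb, so most of the scored window was not covered. The part of repeated sequence in the low shares of the receptors was not tested. The lengths of reads and their placement were not given in the lists.

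The receptors' promoters were also searched for 2 short motifs. The sequence TAATTA, the core recognised by many homeodomain proteins and its own reverse complement, was found in 24.7% of the 239 receptor promoters of 300 bases, in 3.35% of those of other chromosome 2 genes and in 5.29% of all promoters. The Olf/Ebf core was likewise searched on both strands, and it was in 0% of the receptor promoters, 0.947% of the others and 0.904% of all. These are matches of letters in sequences of differing GC content and not binding sites. The RefSeq starts can lie inside the GENCODE gene records, as for Olfr3, Olfr73, Olfr153, Olfr368 and Olfr998. The shares therefore need not describe the sequence at the 5′ ends of the genes.

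Olfactory receptors on other chromosomes were marked more often than those on chromosome 2. Of 840 such genes, 91 were marked in AAV-Cre (10.8%, Wilson 95% interval 8.91 to 13.1%) and 71 in AAV-GFP (8.45%, interval 6.76 to 10.5%). The share varied widely between chromosomes. On chromosome 9 it was 2 of 132 in AAV-Cre and 3 in AAV-GFP, on chromosome 10 it was 2 and 3 of 70, and on chromosome 7 it was 15 and 14 of 243, while on chromosome 11 26 of 82 receptors were marked in AAV-Cre and 12 in AAV-GFP. Chromosome 4 had 10 and 11 of 24. Close neighbours without an Olfr name were rare around the chromosome 2 receptors. A start site of such a coding gene lay within 15 kb of 3 receptors (1.02%), and none of these receptors was marked. What these neighbours encode was not examined. On other chromosomes 49 receptors had such a neighbour, of which 36.7% were marked in AAV-Cre and 16.3% in AAV-GFP, and of the 791 without it 9.23% and 7.96% were.

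The receptors of the vomeronasal organ, which also lie in tandem clusters, had few marks. Of 209 Vmn1r genes 9 were marked in AAV-Cre and 8 in AAV-GFP, and of 120 Vmn2r genes 1 and 10 were. Among the 15 Taar genes, receptors for amines on chromosome 10, 4 were marked in AAV-Cre and 0 in AAV-GFP. Tandem families used in epithelia and the reproductive tract were marked more often than the receptors on chromosome 2 itself. Of 14 Wfdc genes, which encode protease inhibitors, 12 were marked in AAV-Cre and 9 in AAV-GFP, of 11 Defb genes, which encode beta-defensins, 10 and 2, and of 13 Bpif genes 7 and 3, while of 8 Cst genes, which encode cystatins, 1 was marked in each list. These 4 families together had 30 of 46 marked in AAV-Cre (65.2%, interval 50.8 to 77.3%) and 15 in AAV-GFP (32.6%, interval 20.9 to 47.0%).

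A list of developmental regulators on chromosome 2 chosen by name, among them Hoxd genes, Pax6 and Nkx2-2, had 24 of 24 genes marked in both lists. It does not stand for all such regulators. Foxa2, counted among the hepatocyte genes here, lay 5832 bp from a region in AAV-Cre but 255637 bp from one in AAV-GFP. Hepatocyte genes of the chromosome, chosen by name without expression measured here, were marked in 2 of 15 cases in AAV-Cre and 1 of 15 in AAV-GFP. The intervals for the hepatocyte genes were wide (3.74 to 37.9% in AAV-Cre and 1.19 to 29.8% in AAV-GFP). The receptors' share of 0.680% lay below the AAV-Cre interval, and their 3.06% lay inside the AAV-GFP interval. Both gene lists were picked by name with earlier results of these data known. Which of them the receptors resembled was therefore not read from these shares.

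**Figure D5:**
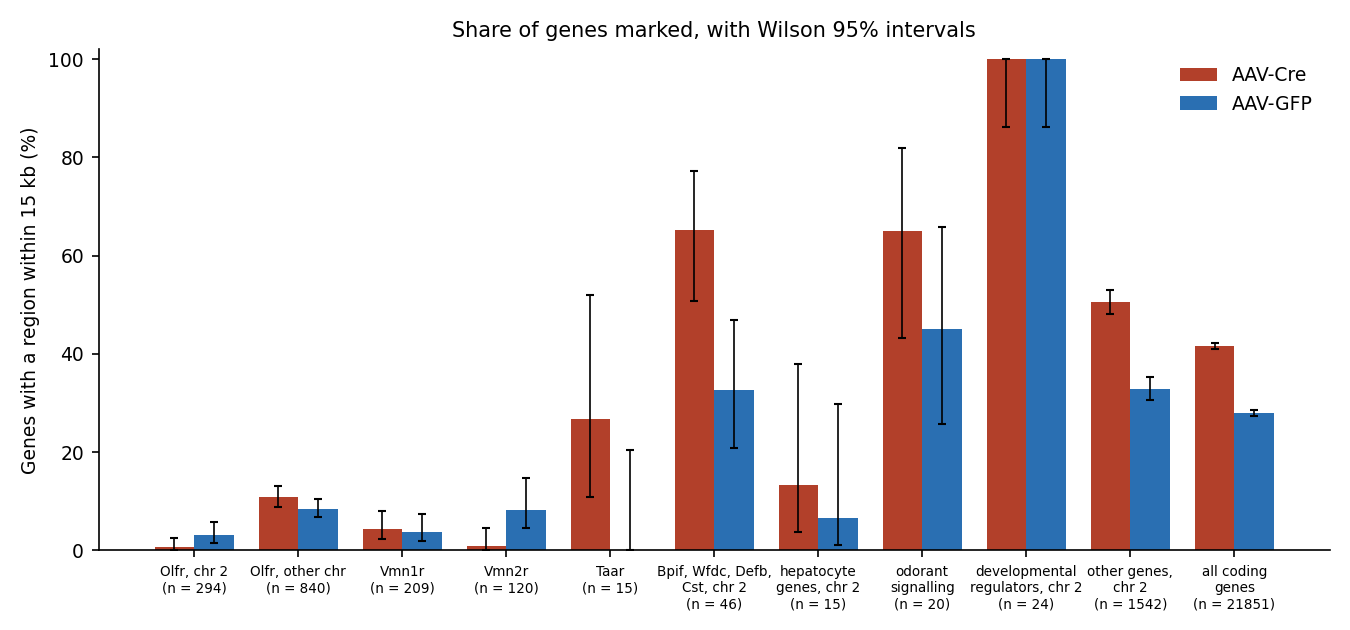
Share of genes with an H3K27-me3 region within 15 kb of a start site (y axis, percent) in the AAV-Cre (red) and AAV-GFP (blue) lists, for gene groups given with their n. Bars start at 0 and error bars are Wilson 95% intervals for counting error. The chromosome 2 olfactory receptors are at 0.680% and 3.06%, below the 10.8% and 8.45% of olfactory receptors elsewhere and the 50.6% and 32.9% of other chromosome 2 genes.

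Other components of odorant detection were taken from a list chosen by name. It held 20 genes of signal transduction, receptor traffic and receptor choice, and 13 of them were marked in AAV-Cre (65%, interval 43.3 to 81.9%) and 9 in AAV-GFP (45%, interval 25.8 to 65.8%). Over all protein-coding genes the shares were 41.6% and 28.0%, just below the AAV-Cre interval and inside the AAV-GFP interval, so nothing particular to the list was read from these counts. Marked in both lists were Gnal and Gng13, G-protein subunits, Adcy3, the adenylyl cyclase of olfactory cilia, Slc24a4, a sodium/calcium exchanger, and the regulators of receptor choice Lhx2, Emx2, Ebf1 and Lbr. Ano2, a chloride channel, Omp, the olfactory marker protein, Cnga4 and Cngb1, channel subunits, and Rtp2, which carries receptors to the membrane, were marked only in AAV-Cre. Stoml3 was marked only in AAV-GFP. Cnga2, Rtp1, Ric8b, Ldb1, Kdm1a and Atf5 were marked in neither list.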

How the data were processed

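H3K27-me3 ChIP-seq libraries and inputs, 8 in all, were grouped by virus from the sample labels. The authors mapped reads to mm10 with BWA 0.7.13, filtered them with SAMtools 1.2 and Picard 1.126, and called peaks against pooled input with MACS in the AQUAS pipeline, keeping peaks that overlapped across both replicates. Per the labels, each of the 2 deposited lists pools the 2 replicates of a group. The deposited values per peak are its position, a fold enrichment over input (a ratio), the −log10 of a p-value, the −log10 of a q-value and a display score, which was not used. A peak is called a region here. Broad domains called as narrow peaks are split into several regions. The lists hold no counts, so the depth is unknown and no limit from depth is given.

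Genes and coordinates were from GENCODE M21, and sequences from GRCm38.p6 and RefSeq promoters (250 bases before to 50 after the start). Genes were called marked within 15 kb of a start site of a basic protein-coding transcript, the window of the study. Clusters were runs of 5 or more receptors at most 500 kb apart. Shares have Wilson 95% intervals. Words of 31 bases were counted over 21 chromosomes on both strands, at every position near start sites and in regions and at 1 in 10 positions across clusters. No p-value was computed.

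The receptors, gene lists and alternatives were chosen with earlier results of these data known. Genes named are the receptors marked in either list, those nearest to and the 3 farthest from a region, the cluster ends, coding genes inside clusters, Olfr73 and Olfr1019, and Srp9 and example genes added later. The windows of 100 kb, the splits by neighbouring genes and the alignment of the shared region were chosen after the data were seen. Distances were tested on simulated positions, where 100% of 2000 equalled a direct search. Alternatives were windows of 1, 5 and 50 kb, q-value thresholds of 0.05 and 0.01, the top 34586 regions of each list, a minimum width of 300 bp, 5′ ends of gene records, pseudogenes included, clusters joined at 200 or 1000 kb, and 1000 bp around start sites. Python 3.11.15 with numpy 2.4.6 and pandas 2.3.3 was used.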

Additional observations from a re-analysis of the deposited data

How the results depend on the processing

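No paired analysis was possible because each deposited list pools both replicates of its group, and leaving out each replicate could not be run for the same reason. Over the alternatives that kept the 294 receptors, 1 to 4 were marked in AAV-Cre and 0 to 22 in AAV-GFP, a lower share than that of other chromosome 2 genes each time, while the sign of the difference between the lists did not. AAV-Cre minus AAV-GFP was -7 receptors as reported, and it was reversed to 1 with q-values up to 0.05, to 2 with q-values up to 0.01 and to 1 with a minimum width of 300 bp. The windows of 1, 5 and 50 kb gave 1, 1 and 4 receptors in AAV-Cre and 1, 3 and 22 in AAV-GFP, differences of 0, -2 and -18, beside 30.3%, 36.7% and 71.1% of other chromosome 2 genes in AAV-Cre and 21.1%, 25.8% and 53.9% in AAV-GFP. With pseudogenes included, 15 Olfr genes were marked in AAV-GFP, a difference of -12.

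With a q-value of 0.05 or lower, AAV-GFP had 1 marked receptor, 26.8% of other genes marked, a median receptor distance of 796 kb, and 0.144 and 8.04 regions per Mb inside the clusters and on the rest of the chromosome. At 0.01 these became 0, 24.3%, 1442 kb, 0 and 6.00, and in AAV-Cre 46.3% of other genes were marked, with 0.144 regions per Mb inside the clusters. With a minimum width of 300 bp, AAV-GFP had 1 marked receptor, 24.8% of other genes marked, a median of 932 kb, and 0.144 and 6.56 regions per Mb. With the top 34586 regions, AAV-Cre had 1 marked receptor, 44.2% of other genes marked, and 0.144 and 17.7 regions per Mb. The median share of words found once was 94.4% within 1000 bp of start sites. Fewer regions enter under the last thresholds by construction. Other causes were not tested. Of 74 alternative values, 32 stayed within the spread or 1.5 times allowed for them, 39 moved beyond it and 3 were reversed in sign. The depth is unknown, so weak marks below the peak callers' thresholds cannot be told from absent ones.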
